A study of Mus musculus with 12 samples.

Results

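The Fc gamma receptors are the surface proteins through which macrophages bind immunoglobulin G, and 5 genes of this family were examined: the receptors Fcgr1, Fcgr2b, Fcgr3 and Fcgr4, and Fcer1g, which encodes the signalling chain that the activating receptors share. They were taken from the count table by gene symbol. All 5 were found among its 56980 gene IDs, and all 5 were among the 15110 genes whose counts were high enough to test.

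RNA was sequenced in 12 libraries of mouse macrophages cultured from bone marrow in L929-conditioned medium over 7 days. There were 4 groups of 3 libraries. In cKO_M1 and WT_M1 the cells had been given 10 ng/ml interferon-gamma with 100 ng/ml lipopolysaccharide, a pairing that drives inflammatory (M1) activation, and in cKO_M0 and WT_M0 they had not. The cKO mice are named RankCre-Regnaes3cKO, a conditional knockout of Regnase-3 (gene Zc3h12c) in which Cre is driven from the gene of the receptor RANK (Tnfrsf11a), and the WT mice are named wildtype. The labels do not say whether the WT mice carried the Cre, so an effect of the Cre and an effect of the deletion cannot be told apart. The sources used here do not state the age of the mice, how long stimulation lasted or whether replicates came from separate animals, so the p-values below measure the spread between these libraries, which may be technical.

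Library totals lay between 41721452 and 42197986 counts, and no pair of replicates agreed to within sampling noise. Levels are given as CPM, that is, counts put on a common scale of library size with TMM factors. Zc3h12c averaged 109.6 ± 15.2 CPM in cKO_M1 and 176 ± 16.6 CPM in WT_M1 (SD, n = 3 each), a log2 fold change of -0.68 (SE 0.12, adjusted p 0.00101 by edgeR's quasi-likelihood test). In M0 it averaged 15.6 ± 2.57 CPM in the libraries labelled cKO and 16.4 ± 0.773 CPM in WT (log2 fold change -0.07, SE 0.12, adjusted p 0.810). The sources used here do not name the deleted exons, and a count over the whole gene includes exons outside the deletion, so in M0 this gene does not check the label. The 6 macrophage markers Adgre1, Csf1r, Cd68, Itgam, Mertk and Lyz2 summed to 12275 to 18176 CPM over all libraries. Of the mast cell and basophil markers, Fcer1a had 0 counts in every library, while some others, given below, had counts.

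Fc gamma receptors read the amount and class of antibody on a target and turn it into phagocytosis, cytokine release or restraint. The activating receptors Fcgr1, Fcgr3 and Fcgr4 have no signalling motif of their own and depend on the ITAM (immunoreceptor tyrosine-based activation motif) of the Fcer1g chain, which is phosphorylated by Src family kinases and recruits the kinase Syk. Fcgr2b carries an inhibitory motif (ITIM) in its own tail and recruits the lipid phosphatase encoded by Inpp5d, and macrophages set their threshold for immune complexes by the balance of both kinds. Interferon-gamma is a known inducer of Fcgr1 and Fcgr4 in mouse macrophages.

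The promoters of the 4 receptors are shown because these genes moved together on stimulation, by unequal amounts. Each window holds 250 bases before and 50 bases after the RefSeq start (build GRCm38.p6, 5′ to 3′ on the gene's own strand), at chr1:171018676-171018975 (plus strand) for Fcgr4, chr3:96293920-96294219 (minus strand) for Fcgr1, chr1:171059354-171059653 (minus strand) for Fcgr3 and chr1:170976022-170976321 (minus strand) for Fcgr2b. Capitals mark every match, on either strand, to 3 letter patterns: TTCNNNGAA (GAS, bound by STAT factors), GAAA, any pair of bases and GAAA again, or its reverse complement, TTTC, any pair and TTTC (ISRE, bound by interferon-activated complexes), and GAGGAA or its reverse complement TTCCTC (a core bound by PU.1, the product of Spi1).
Fcgr4: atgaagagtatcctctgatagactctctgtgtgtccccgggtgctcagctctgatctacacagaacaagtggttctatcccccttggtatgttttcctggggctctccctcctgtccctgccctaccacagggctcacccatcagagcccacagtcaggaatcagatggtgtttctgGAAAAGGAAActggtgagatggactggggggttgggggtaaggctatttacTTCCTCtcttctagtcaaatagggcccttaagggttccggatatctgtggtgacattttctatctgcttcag
Fcgr1: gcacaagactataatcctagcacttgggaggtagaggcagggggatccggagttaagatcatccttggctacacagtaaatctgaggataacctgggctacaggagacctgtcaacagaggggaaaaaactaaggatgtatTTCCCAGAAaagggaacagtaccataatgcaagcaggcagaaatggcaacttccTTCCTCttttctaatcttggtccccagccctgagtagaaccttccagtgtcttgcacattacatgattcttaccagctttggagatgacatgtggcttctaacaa
Fcgr3: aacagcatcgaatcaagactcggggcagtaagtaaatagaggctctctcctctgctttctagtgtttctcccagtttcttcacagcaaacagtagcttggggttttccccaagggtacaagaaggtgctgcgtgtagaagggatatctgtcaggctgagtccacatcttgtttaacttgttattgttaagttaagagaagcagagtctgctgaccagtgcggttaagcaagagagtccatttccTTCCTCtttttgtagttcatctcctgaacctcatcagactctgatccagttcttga
Fcgr2b: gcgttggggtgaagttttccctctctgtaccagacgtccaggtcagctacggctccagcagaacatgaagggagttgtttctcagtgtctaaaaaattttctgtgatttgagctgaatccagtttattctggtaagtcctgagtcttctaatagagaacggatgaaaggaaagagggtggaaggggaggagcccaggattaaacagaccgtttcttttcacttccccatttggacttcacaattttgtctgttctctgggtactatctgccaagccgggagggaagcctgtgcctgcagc
Fcgr4 held an ISRE match (GAAAAGGAAA) whose leading base lies at position -73 from the start and a PU.1 match at -22. Fcgr1 held a GAS match (TTCCCAGAA) at -109 and a PU.1 match at -55, and Fcgr3 held a PU.1 match at -6. No matches overlapped each other, and none of these letters were found in the windows of Fcgr2b and Fcer1g (chr1:171234300-171234599, minus strand). Among 32851 RefSeq promoter windows of the same length, 3.44% held the ISRE letters, 8.3% the GAS letters and 28.3% the PU.1 letters. A match is a run of letters, and binding was not measured.

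Fcgr2b, Fcgr4 and Fcgr3 are consecutive in the reference's gene order on chromosome 1, Fcer1g lies farther along the same chromosome, and Fcgr1 is on chromosome 3. Fcgr2b and Fcgr3 share coding sequence, which matters because reads from it match both genes. The longest run the transcripts of both hold in common has 129 bases and lies within the coding sequence of each.
shared by Fcgr2b and Fcgr3: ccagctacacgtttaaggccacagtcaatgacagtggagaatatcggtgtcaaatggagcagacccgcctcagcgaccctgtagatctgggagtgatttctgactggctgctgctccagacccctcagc
Of all 50-base windows of the Fcgr3 transcripts, 9.58% also occurred in another gene, and of those of Fcgr2b 4.38%. At 100 bases the shares were 2.54% for Fcgr3 and 1.4% for Fcgr2b. At 150 bases none of the windows of either gene did, and Fcgr1, Fcgr4 and Fcer1g shared none at 50, 100 or 150 bases. The sources used here give neither the read length nor how reads that match several places were counted, so part of the counts of Fcgr2b and Fcgr3 may be misassigned or lost.

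Stimulation raised all 5 genes in both genotypes. In each genotype the fold change of Fcgr4 was the largest of the 5, and those of Fcgr3 and Fcer1g were the smallest. By edgeR's quasi-likelihood test, 5 of 5 members rose in M1 against M0 in cKO, where 70.2% of all tested genes passed (34.2% rose and 36% fell). In WT 5 of 5 rose too, where 71.4% passed (34.2% rose and 37.1% fell). In neither genotype did the M1 and M0 libraries of any member overlap, which also held for 72.7% of all tested genes in cKO and 75.6% in WT. Because RNA was taken from whole cultures, fewer cells of a type and less RNA per cell cannot be told apart.

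Fcgr4, an activating receptor of intermediate affinity that mouse monocytes and macrophages carry, had 1236, 1249 and 1077 CPM in cKO_M1, against 70.4, 83.4 and 84.3 CPM in cKO_M0. It had 1160.3, 1154 and 1146 CPM in WT_M1, against 97.8, 81.5 and 93.8 CPM in WT_M0. Every M1 library was more than an order of magnitude above every M0 library. The log2 fold change was 3.90 in cKO (SE 0.10, adjusted p 3.65e-14) and 3.66 in WT (SE 0.10, adjusted p 7.66e-14), and only 2.66% of tested genes in cKO and 3.03% in WT had a larger one.

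Fcgr1, the high-affinity receptor, which can hold single immunoglobulin G molecules, had 1873, 1701 and 1479 CPM in cKO_M1, against 218, 342 and 336 CPM in cKO_M0. In WT_M1 it had 1625, 1459 and 1716 CPM, against 244, 273 and 235 CPM in WT_M0. The stimulated libraries of both genotypes overlapped, while among the unstimulated libraries cKO_M0 replicate 1 lay below the others and cKO_M0 replicates 2 and 3 above them. The log2 fold change was 2.49 in cKO (SE 0.15, adjusted p 5.10e-10) and 2.67 in WT (SE 0.15, adjusted p 2.30e-10).

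Fcgr2b, the inhibitory receptor, had 159, 167 and 178 CPM in cKO_M1, against 40.2, 25.2 and 26.9 CPM in cKO_M0. In WT_M1 it had 239, 242 and 214 CPM, against 58.5, 41.6 and 61.4 CPM in WT_M0. It thus rose beside the activating receptors, by 2.45 on the log2 scale in cKO (SE 0.17, adjusted p 2.32e-09) and by 2.11 in WT (SE 0.16, adjusted p 1.12e-08).

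Fcgr3, the low-affinity activating receptor for immune complexes, had 1093, 1100 and 939 CPM in cKO_M1, against 411, 324 and 362 CPM in cKO_M0. In WT_M1 it had 997, 980 and 942 CPM, against 441, 345 and 411 CPM in WT_M0. Its log2 fold change was 1.51 in cKO (SE 0.11, adjusted p 3.73e-09) and 1.29 in WT (SE 0.11, adjusted p 2.37e-08). Fcer1g, the chain without which the activating receptors are not kept at the surface, had 1436, 1554 and 1423 CPM in cKO_M1, against 532, 476 and 518 CPM in cKO_M0. In WT_M1 it had 1400, 1482 and 1381 CPM, against 538, 494 and 541 CPM in WT_M0. Its log2 fold change, 1.53 in cKO (SE 0.08, adjusted p 6.00e-11) and 1.44 in WT (SE 0.08, adjusted p 1.23e-10), was close to that of Fcgr3.

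**Figure D1:**
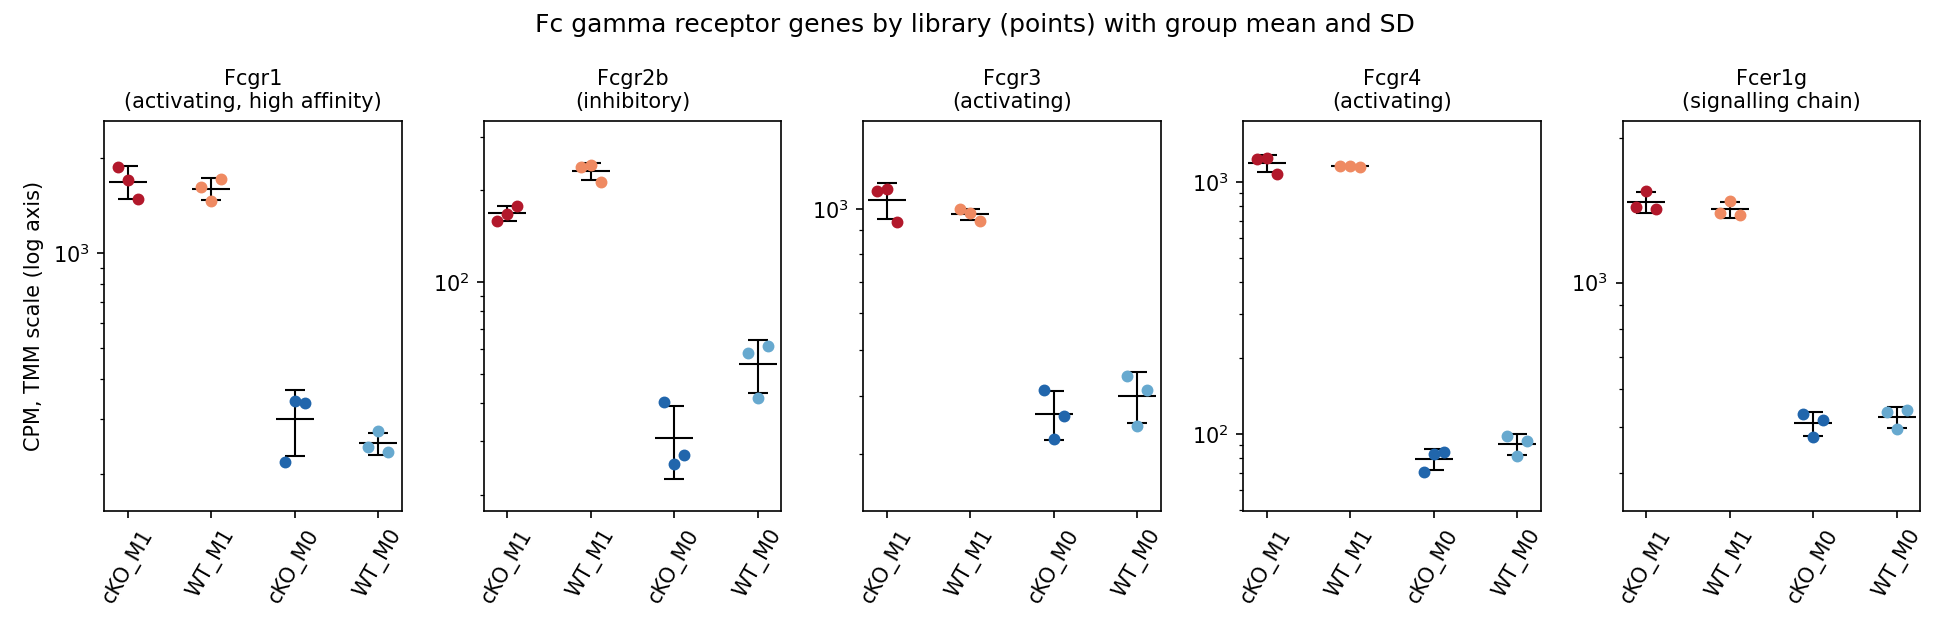
Levels of the 5 genes in each library, in CPM on a log axis, by group; horizontal bars are group means and error bars SDs (n = 3 libraries a group), and each gene has its own axis range. All M1 libraries lie above all M0 libraries for every gene, and Fcgr2b is the gene whose cKO points lie below the WT points in both states.

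Scaling mattered for the size of these rises but not for their call. TMM factors averaged 0.840 in cKO_M1, 0.808 in WT_M1, 1.22 in cKO_M0 and 1.21 in WT_M0, and with library totals alone the median over all tested genes moved by -0.53 in cKO and -0.58 in WT on the log2 scale. Without TMM factors the members' log2 fold changes were 3.37 (Fcgr4), 1.96 (Fcgr1), 1.91 (Fcgr2b), 0.99 (Fcer1g) and 0.98 (Fcgr3) in cKO, and all 5 passed. In WT they were 3.08, 2.09, 1.52, 0.85 and 0.70 in the same order of genes, and all 5 passed. That scaling also moved the whole table's calls, of which 24.2% in cKO and 23.5% in WT were then higher, against 48.7% and 48% with TMM.

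The makeup of the receptor messages was set out per length, with counts divided by the gene length in the table (CPM per kilobase). Fcgr4 was the largest part of the 4 receptors in M1, at 42.5% in cKO_M1 and 43.0% in WT_M1, against 16.0% in cKO_M0 and 17.7% in WT_M0. Fcgr3 was the largest part in M0, and it made up 27.0% in cKO_M1 and 26.2% in WT_M1, against 53.5% in cKO_M0 and 56.1% in WT_M0. Fcgr1 held 29.2% in cKO_M1, 28.9% in WT_M1, 29.2% in cKO_M0 and 23.9% in WT_M0. Fcgr2b was the smallest part in every group, at 1.32% in cKO_M1, 1.87% in WT_M1, 1.35% in cKO_M0 and 2.26% in WT_M0. Its length in the table is 5790 bases, against 874 to 2589 bases for the other members, so its level per kilobase would be higher if a shorter transcript carried most of its reads.

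In CPM per kilobase, the order in cKO_M1 was Fcer1g (1683 ± 82.7), Fcgr4 (945 ± 76.4), Fcgr1 (650 ± 76.3), Fcgr3 (601 ± 52.3) and Fcgr2b (29.0 ± 1.69). WT_M1 had the same order, with Fcer1g at 1626 ± 61.4, Fcgr4 at 918 ± 5.81, Fcgr1 at 618 ± 50.4, Fcgr3 at 560 ± 16.3 and Fcgr2b at 40.0 ± 2.67. Fcgr1 and Fcgr3 were neighbours whose libraries overlapped in both M1 groups, and the other neighbours did not overlap. In cKO_M0 the order was Fcer1g (582 ± 33.0), Fcgr3 (211 ± 25.0), Fcgr1 (115 ± 27.0), Fcgr4 (63.2 ± 6.22) and Fcgr2b (5.31 ± 1.42), with no overlap between neighbours. WT_M0 had that order too, at 600.3 ± 30.3, 230.0 ± 28.3, 96.9 ± 7.75, 72.5 ± 6.77 and 9.30 ± 1.85 CPM per kilobase in turn, also without overlap.

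**Figure D2:**
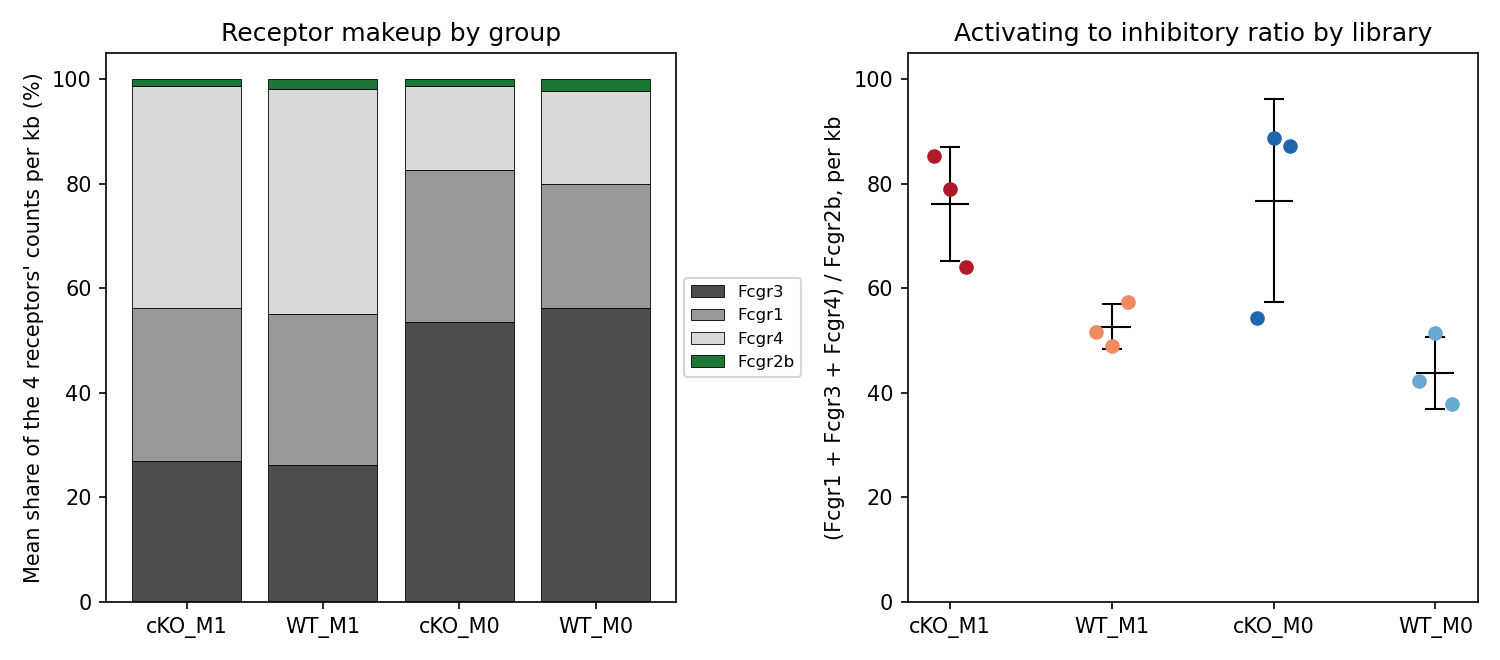
Left, mean share of each receptor in the 4 receptors' counts per kilobase (%), by group; right, the ratio of the activating receptors (Fcgr1, Fcgr3 and Fcgr4 summed) to Fcgr2b per kilobase in each library, with group mean and SD (n = 3). The Fcgr4 part is 42.5% in cKO_M1 and 43.0% in WT_M1 against 16.0% in cKO_M0 and 17.7% in WT_M0, and the cKO ratios lie above the WT ratios within each state.

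Between the genotypes, Fcgr2b was the only member of the 5 that passed, in M0. There its level in the libraries labelled cKO was 57.2% of that in WT (30.8 ± 8.22 against 53.8 ± 10.7 CPM), a log2 fold change of -0.81 (SE 0.16, 95% interval -1.15 to -0.46, adjusted p 0.0307 by edgeR's quasi-likelihood test). It was the 1 member of 5 called in M0, where 1.61% of all tested genes were called (0.953% lower and 0.662% higher). The groups did not overlap, as for 26.2% of tested genes, but cKO_M0 replicate 1 (40.2 CPM) lay just below WT_M0 replicate 5 (41.6 CPM). Leaving out either of these gave a log2 fold change of -1.04 (adjusted p 0.00179) or -0.96 (adjusted p 0.00579).

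The M0 call was near its threshold. It was lost without cKO_M0 replicate 2 (adjusted p 0.0888), cKO_M0 replicate 3 (0.208), WT_M0 replicate 4 (0.118) or WT_M0 replicate 6 (0.215), where the log2 fold change lay between -0.74 and -0.68. It was also lost without cKO_M1 replicate 8 (0.0592), WT_M1 replicate 10 (0.0588) or WT_M1 replicate 12 (0.0511), which take no part in the contrast but in the shared estimate of the spread. In each of the 12 fits Fcgr2b stayed lower in cKO. The count of all genes called in M0, 244 with all libraries, lay between 1 (cKO_M0 replicate 3 left out) and 452 (cKO_M1 replicate 7 left out).

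In M1 Fcgr2b stood at 168 ± 9.76 CPM in cKO and 232 ± 15.5 CPM in WT, 72.6% of WT, with a log2 fold change of -0.46 (SE 0.16, 95% interval -0.80 to -0.13). Its adjusted p of 0.0528 missed the threshold, so 0 of 5 members were called in M1, where 18.6% of all tested genes were (9.67% lower and 8.98% higher). At an unadjusted p under 0.05, Fcgr2b (p 0.0101) was the 1 member of 5 that passed, as did 32.5% of all tested genes. The highest cKO_M1 library, at 178 CPM, lay below the lowest WT_M1 library, at 214 CPM, and groups without overlap made up 33.7% of tested genes. Fcgr2b passed in M1 with DESeq2 (log2 fold change -0.48, adjusted p 0.0247), with limma-voom (-0.46, adjusted p 0.0420) and in a fit to the M1 libraries alone (-0.48, adjusted p 0.00407), and did not with library totals alone (-0.41, adjusted p 0.0885). Its adjusted p in M1 ran from 1.63e-05 to 0.0885 over 8 alternatives, and from 0.0138 to 0.151 with a library left out.

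The difference was not shown to depend on the state. The interaction, the cKO effect in M1 minus that in M0, was 0.35 for Fcgr2b on the log2 scale (SE 0.22, 95% interval -0.13 to 0.82, adjusted p 0.374). It was 0.24 for Fcgr4, 0.23 for Fcgr3, 0.09 for Fcer1g and -0.18 for Fcgr1, with adjusted p from 0.287 to 0.639. None of the 5 passed the interaction test, which called 8.16% of tested genes (4.02% with a positive and 4.14% with a negative value), and none had an unadjusted p under 0.05 in it (23.9% of tested genes did) or passed with DESeq2 (12.5% did) or limma-voom (8.08% did). The value for Fcgr2b rested on single libraries: it was 0.58 without cKO_M0 replicate 1 (adjusted p 0.0719) and 0.22 without cKO_M0 replicate 2 (adjusted p 0.591), the ends of its range over the 12 fits.

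**Figure D3:**
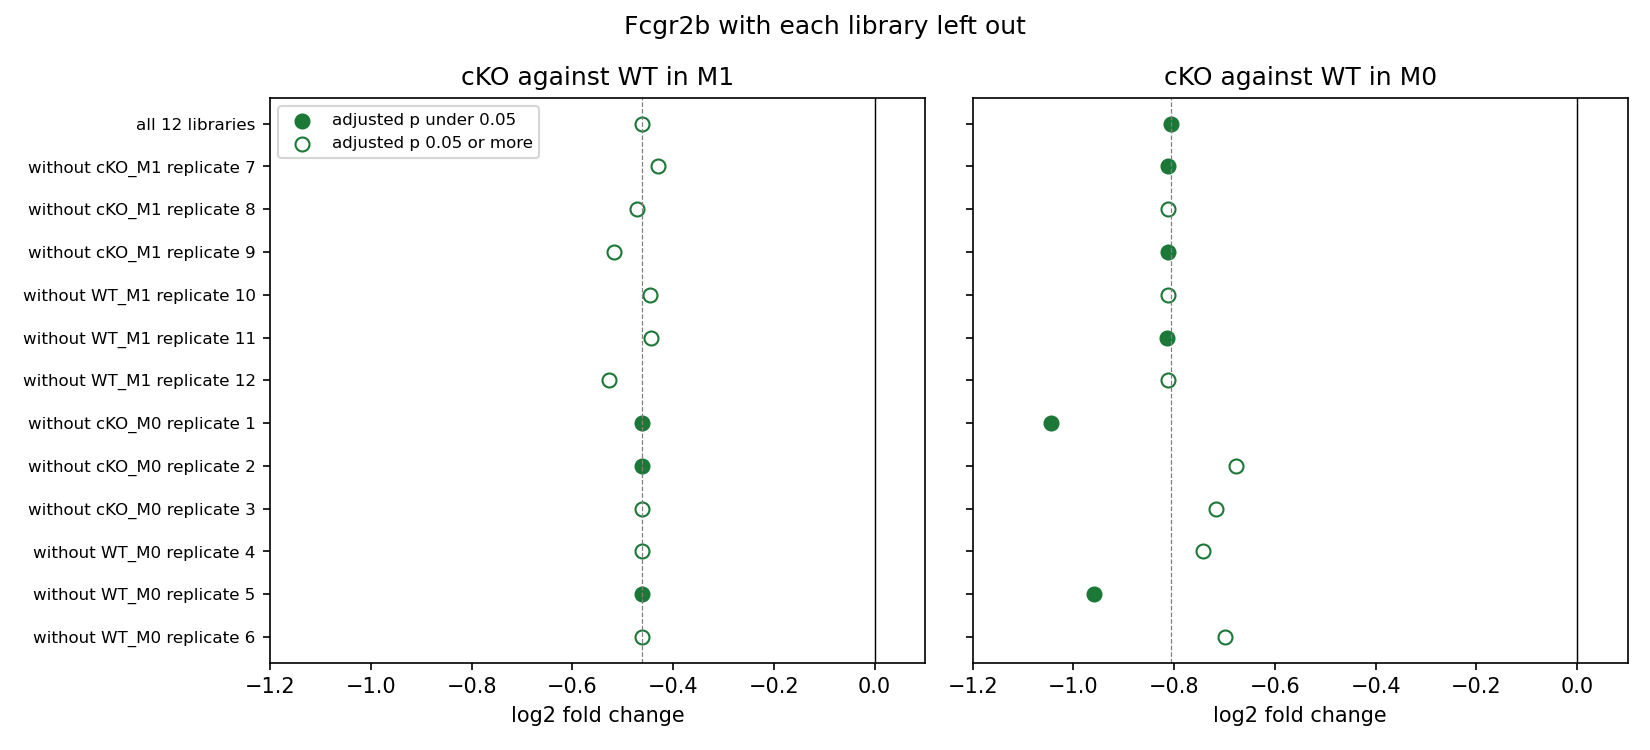
Log2 fold change of Fcgr2b, cKO against WT, in M1 (left) and M0 (right), from all 12 libraries and with each library left out in turn; filled points have an adjusted p under 0.05. Every point lies below 0, between -0.53 and -0.43 in M1 and between -1.04 and -0.68 in M0.

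The activating receptors and their chain did not pass in either state, and the 95% intervals give the differences these data allow. In M0 the log2 fold change was -0.20 for Fcgr4 (95% interval -0.40 to 0.0016, adjusted p 0.272), -0.13 for Fcgr3 (-0.35 to 0.10, adjusted p 0.543), -0.04 for Fcer1g (-0.21 to 0.12, adjusted p 0.793) and 0.25 for Fcgr1 (-0.05 to 0.56, adjusted p 0.356). In M1 it was 0.04 for Fcgr4 (-0.16 to 0.24, adjusted p 0.801), 0.10 for Fcgr3 (-0.12 to 0.32, adjusted p 0.544), 0.05 for Fcer1g (-0.11 to 0.21, adjusted p 0.699) and 0.07 for Fcgr1 (-0.23 to 0.38, adjusted p 0.768). The cKO and WT libraries of all 4 genes overlapped in both states. Fcgr1 passed in M0 only when cKO_M0 replicate 1 was left out (log2 fold change 0.44, adjusted p 0.0466), and over the 12 such fits its adjusted p reached 0.745.

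**Figure D4:**
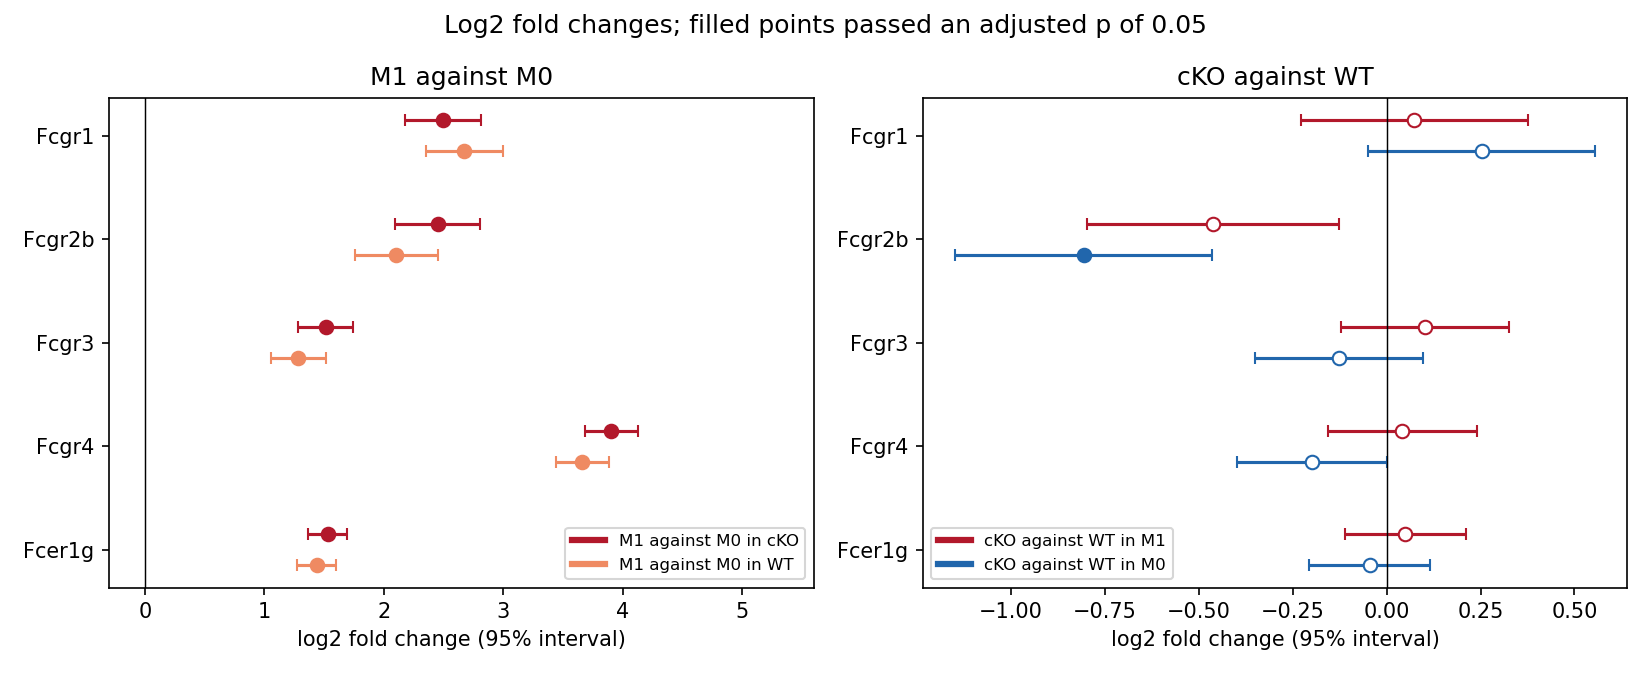
Log2 fold changes of the 5 genes with 95% intervals, M1 against M0 within each genotype (left) and cKO against WT within each state (right); filled points passed an adjusted p of 0.05. The left panel runs from 1.29 to 3.90 with every point filled, and in the right panel the Fcgr2b point of M0 is the filled one.

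As a description of the balance between both kinds of receptor, the ratio of Fcgr1, Fcgr3 and Fcgr4 summed to Fcgr2b, per kilobase, was taken in each library. It was 85.2, 79.0 and 64.0 in cKO_M1 and 51.6, 48.9 and 57.4 in WT_M1. It was 54.3, 88.7 and 87.2 in cKO_M0 and 42.2, 51.4 and 37.9 in WT_M0. The means were 76.1 ± 10.9, 52.6 ± 4.30, 76.7 ± 19.4 and 43.9 ± 6.90 in that order of groups, and cKO and WT did not overlap in either state, with cKO_M0 replicate 1 nearest to WT. Each activating receptor alone, set against Fcgr2b, averaged higher in cKO. In M1 the ratio was 32.7 in cKO_M1 against 23.0 in WT_M1 for Fcgr4, 22.6 in cKO_M1 against 15.6 in WT_M1 for Fcgr1, and 20.8 in cKO_M1 against 14.0 in WT_M1 for Fcgr3. In M0 it was 12.6 in cKO_M0 against 7.93 in WT_M0 for Fcgr4, 23.5 in cKO_M0 against 10.9 in WT_M0 for Fcgr1, and 40.6 in cKO_M0 against 25.1 in WT_M0 for Fcgr3. The Fcgr4 and Fcgr1 ratios of cKO_M0 replicate 1 (8.07 and 12.1) lay below those of WT_M0 replicate 5 (9.04 and 14.7). The cKO_M0 and WT_M0 libraries thus overlapped for both receptors. For Fcgr3 they did not overlap in M0, and in M1 no receptor's ratios overlapped. No test was made of these ratios, which hold the same Fcgr2b values as above. The activating receptors summed to 1.31 ± 0.108 times Fcer1g in cKO_M1, 1.29 ± 0.0734 in WT_M1, 0.670 ± 0.0453 in cKO_M0 and 0.665 ± 0.0238 in WT_M0, so receptor message exceeded that of the chain per kilobase in both stimulated groups and in neither unstimulated group.

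Markers of other cells were measured beside these values, because B cells carry Fcgr2b and mast cells carry several members. The 10 B and plasma cell markers summed to 0.511 to 0.794 CPM in cKO_M1, 3.16 to 5.20 CPM in WT_M1, 33.0 to 62.4 CPM in cKO_M0 and 53.7 to 70.6 CPM in WT_M0. In M0 most of this was the immunoglobulin gene Ighm. The 8 dendritic cell markers summed to 23.0 to 32.4 CPM in cKO_M1, 48.0 to 54.3 CPM in WT_M1, 37.7 to 50.4 CPM in cKO_M0 and 63.0 to 70.6 CPM in WT_M0. Most of it was the integrin gene Itgax, which macrophages also express and which was lower in cKO in M1 (log2 fold change -0.95, adjusted p 0.000325) and M0 (-0.64, adjusted p 0.0407). The 10 mast cell and basophil markers summed to 0.482 to 0.820 CPM in cKO_M1, 1.46 to 1.83 CPM in WT_M1, 3.49 to 6.30 CPM in cKO_M0 and 6.91 to 7.71 CPM in WT_M0. In M0 most of this was the receptor gene Kit, and Fcer1a and the protease genes Mcpt4, Tpsab1, Tpsb2 and Cma1 had 0 counts in every library. Of the other markers in this list, Cpa3 had 1 to 10 counts in every library and Gata2 had 0 to 28. Ms4a2 had up to 4 counts and Mcpt8 up to 2. The dendritic cell, mast cell and stromal cell sums were lower in cKO without overlap in both states. Single genes without overlap, in either direction, made up 33.7% of tested genes in M1 and 26.2% in M0. The stromal cell sums were low, at 1.19 to 1.79 CPM in cKO_M1 and 1.92 to 2.11 CPM in WT_M1. In M0 they were 0 to 0.118 CPM in cKO_M0 and 0.160 to 4.93 CPM in WT_M0. In M1 most of the stromal sum was Dcn, which did not pass (log2 fold change -0.79, adjusted p 0.259 by edgeR's quasi-likelihood test). The B cell sums and the megakaryocyte and platelet sums were lower without overlap in M1 and overlapped in M0. In M1 the T and NK cell sums were higher in cKO, at 7.95 to 12.8 CPM against 7.21 to 7.57 CPM in WT. Most of this was Klrk1, at 10.2 CPM in cKO_M1 and 7.28 CPM in WT_M1. Klrk1 did not pass (log2 fold change 0.48, adjusted p 0.260 by edgeR's quasi-likelihood test). Cd3e, Cd3g, Gzma and Prf1 had 0 counts in every library. In M0 the T and NK cell sums were lower in cKO, at 0.216 to 0.314 CPM against 0.354 to 0.411 CPM in WT. The neutrophil sums overlapped in both states. Of the 6 macrophage markers, Itgam rose in cKO against WT in M1 (log2 fold change 0.25, adjusted p 0.0268), Cd68 fell in M1 (-0.46, adjusted p 0.000498) and Mertk fell in M0 (-0.72, adjusted p 0.0103), and the others passed in neither state. Their summed level overlapped between cKO and WT in both states. The part of these values in the Fcgr2b result was not tested.

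For each member, the genes whose log2 CPM followed it most closely over the 12 libraries were taken from 9231 genes with a mean of at least 5 CPM, by Pearson's r as a description. The 12 libraries fall into the M0 and M1 states, and the largest differences among them lie between the states. Closest to Fcgr1 were Mx1, Isg15 and Ifi205 (r of 0.9986, 0.9983 and 0.9983), and closest to Fcgr4 were Slc15a3, Lrrc25 and Rnf19b (0.9993, 0.9992 and 0.9992). Closest to Fcgr3 were Bcl2a1b, Serp1 and Fas (0.9968, 0.9962 and 0.9955), and closest to Fcer1g were Fth1, C1ra and Slc31a1 (0.9985, 0.9981 and 0.9979). Closest to Fcgr2b were Entpd1, Sowahc and Best1 (0.9989, 0.9929 and 0.9927).

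With the mean of each state subtracted, the genes closest to Fcgr2b were Entpd1 (r 0.9987), which encodes an enzyme that breaks down extracellular ATP, H2-Aa (0.9878), an MHC class II chain, and Ndrg1 (0.9772). Entpd1 had a log2 fold change of -0.50 in M0 (adjusted p 0.0422) and -0.28 in M1 (adjusted p 0.0881), and H2-Aa one of -0.93 in M0 (adjusted p 0.0105) and -0.56 in M1 (adjusted p 0.0135). These genes were picked for following Fcgr2b, so their direction is no separate evidence. Among the members themselves, centred in this way, Fcgr3 and Fcer1g had an r of 0.83, and Fcgr1 and Fcgr2b one of -0.77, over 12 libraries in groups of 3.

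The rest of the pathway was described with lists of genes around the receptors. Of the 41 genes of activating signalling, 6 rose and 5 fell in cKO against WT in M1 (median log2 fold change 0.04), and 0 rose and 1 fell in M0 (median -0.08). Over all tested genes the median was 0.02 in M1, where 8.98% rose and 9.67% fell, and 0.01 in M0, where 0.662% rose and 0.953% fell. Of the 25 tested genes of inhibitory signalling and ITIM receptors, 7 rose and 4 fell in M1 (median 0.05), and 0 rose and 1 fell in M0 (median -0.12). At an unadjusted p under 0.05 in M0, 0 of the activating genes were higher and 7 lower, and 1 of the inhibitory genes was higher and 6 lower, where 10.1% of all tested genes were higher and 8.54% lower. With DESeq2, which called 5.79% of genes in M0, 4 activating and 3 inhibitory genes passed there, all lower in cKO. With limma-voom, which called 3.25%, 2 activating genes and 1 inhibitory gene passed, again lower in cKO. In M1 against M0, where 34.2% of all tested genes rose in each genotype and 36% fell in cKO and 37.1% in WT, 23 of the 41 activating genes rose and 10 fell in cKO, while 21 rose and 13 fell in WT. Of the 25 inhibitory genes, 18 rose and 1 fell in cKO, while 13 rose and 4 fell in WT. With the smallest p in WT, Src (log2 fold change 2.73 in cKO and 2.73 in WT) and Lcp2 (2.01 in cKO and 1.61 in WT) rose and Pik3cg fell (-1.57 in cKO and -2.43 in WT) among activating genes. Among inhibitory genes these were Cd300lf (3.88 in cKO and 4.60 in WT), Pecam1 (4.05 in cKO and 3.82 in WT) and Pirb (1.51 in cKO and 1.35 in WT), which rose.

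Src, a founding member of the kinase family that phosphorylates ITAMs, was lower in cKO in both states. It averaged 103 ± 15.3 CPM in cKO_M1 and 162 ± 10.9 CPM in WT_M1 (log2 fold change -0.65, adjusted p 0.000302), and 15.5 ± 0.775 CPM in cKO_M0 and 24.5 ± 0.727 CPM in WT_M0 (-0.66, adjusted p 0.0103). Its M0 call did not survive the loss of cKO_M0 replicate 3 or WT_M0 replicate 6 (adjusted p up to 0.0961), and its M1 call held in all 12 fits. In M1, Pik3cg (a catalytic subunit of phosphoinositide 3-kinase) and Lcp2 (an adaptor downstream of Syk) rose, by 0.76 (adjusted p 0.000177) and 0.35 (adjusted p 0.00245) on the log2 scale, and the adaptor Lat2 fell by 0.85 (adjusted p 0.000393). These M1 calls held in all 12 fits.

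Among inhibitory genes in M1, Siglece (a sialic acid receptor with an ITIM) averaged 25.9 ± 1.71 CPM in cKO and 12.6 ± 2.89 CPM in WT, a log2 fold change of 1.04 (adjusted p 0.000412). Dok2, an adaptor that restrains Ras signalling, rose by 0.94 (adjusted p 0.00242). The ITIM receptors Lilrb4a and Cd300lf fell by 0.84 (adjusted p 0.000432) and 0.61 (adjusted p 0.000463), and these calls held in all 12 fits. In M0 the ITIM receptor Cd22 fell by 0.73 (adjusted p 0.0449), a call that held in 5 of 12 fits. It was lost without cKO_M0 replicates 2 or 3, WT_M0 replicates 4 or 6, cKO_M1 replicate 8 or WT_M1 replicates 10 or 12, with an adjusted p of up to 0.272.

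Of the 15 tested ITAM adaptors and ITAM-linked receptors, 1 rose and 2 fell in M1, 3 of 15 where 18.6% of all tested genes passed. None passed in M0 (5 at an unadjusted p under 0.05, as for 18.6% of all tested genes, 1 with DESeq2, which was Clec5a, and 0 with limma-voom). In M1 Clec5a rose by 0.36 (adjusted p 0.0253), Trem2 fell by 0.34 (adjusted p 0.0374), and Clec7a, which encodes a beta-glucan receptor, fell by 0.74 (adjusted p 0.0415). Each call was lost without cKO_M1 replicates 7 or 8 or WT_M1 replicate 12. The Clec5a call was also lost without WT_M1 replicate 11, that of Trem2 without WT_M0 replicate 6 or WT_M1 replicate 10, and that of Clec7a without WT_M0 replicate 6, cKO_M1 replicate 9 or WT_M1 replicates 10 or 11, with an adjusted p of up to 0.146 for Clec5a, 0.162 for Trem2 and 0.131 for Clec7a. Of 6 tested receptors of other Fc and Fc-like kinds, Fcrl1 fell in M1, by 0.30 (adjusted p 0.0172), a call lost without cKO_M1 replicate 8 (adjusted p 0.0701), and 0 passed in M0 (1 at an unadjusted p under 0.05, 0 with DESeq2 or limma-voom). On stimulation 3 of these 6 rose and 3 fell in cKO, and 3 rose and 2 fell in WT. Of all tested genes 34.2% rose in each genotype, and 36% fell in cKO and 37.1% in WT. Fcgrt, the neonatal Fc receptor that recycles immunoglobulin G, fell (log2 fold change -0.79 in cKO, adjusted p 5.49e-06, and -1.21 in WT, adjusted p 3.82e-08), and Fcrls also fell (log2 fold change -5.50 in cKO and -5.14 in WT). Fcrlb, at under 1 CPM on average in every group, rose by 4.05 in cKO and 3.02 in WT. The same all-gene shares stand beside the ITAM counts. Of the 15 ITAM genes, 8 rose and 3 fell in cKO on stimulation, and 7 rose and 3 fell in WT. Those with the smallest p in WT were Cd300lb, which fell (-2.28 in cKO and -2.51 in WT), Sirpb1a, which rose by 3.41 in cKO and 3.24 in WT, and Clec4e, which rose by 5.09 in cKO and 5.61 in WT.

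Of 16 genes known to regulate Fc receptor transcription, 2 rose and 2 fell in cKO against WT in M1, 4 of 16 where 18.6% of all tested genes passed, and 0 passed in M0 (3 at an unadjusted p under 0.05, as for 18.6% of all tested genes, 0 with DESeq2 or limma-voom). The smallest p in M0 belonged to Cebpa (log2 fold change -0.34, adjusted p 0.155) and Stat3 (-0.20, adjusted p 0.215). In M1 Nfkb1 rose by 0.53 (adjusted p 0.000299), while Cebpa, a myeloid transcription factor, and the kinase Jak1 fell by 0.62 (adjusted p 0.00266) and 0.42 (adjusted p 0.00313), and these calls held in all 12 fits. Ifngr1, a chain of the interferon-gamma receptor, rose by 0.28 (adjusted p 0.0210), a call lost without cKO_M1 replicates 8 or 9 or WT_M1 replicates 11 or 12 (adjusted p up to 0.134). On stimulation, 13 of the 16 rose and 3 fell in cKO, and 11 rose and 3 fell in WT. Of all tested genes 34.2% rose in each genotype, and 36% fell in cKO and 37.1% in WT. The log2 fold change was 4.37 in cKO and 4.03 in WT for Irf1, 2.93 in cKO and 2.78 in WT for Jak2, and 3.01 in cKO and 3.13 in WT for Cebpb. Among those that fell were Cebpa (-0.98 in cKO and -0.69 in WT) and Ifngr1 (-0.92 in cKO and -1.24 in WT).

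Of 8 C5a receptor and complement genes, whose products act with Fc receptors on immune complexes, 4 rose in M1, where 8.98% of all tested genes rose, and 0 passed in M0 (1 at an unadjusted p under 0.05, as for 18.6% of all tested genes, 0 with DESeq2 or limma-voom). The smallest p in M0 belonged to C5ar1 (log2 fold change 0.23, adjusted p 0.195) and Itgb2 (-0.11, adjusted p 0.404). In M1 C5ar1, the receptor of the complement fragment C5a, averaged 452 ± 12.2 CPM in cKO_M1 and 284 ± 26.4 CPM in WT_M1, a log2 fold change of 0.67 (adjusted p 0.000197) that held in all 12 fits. C5ar2 (0.58, adjusted p 0.0215), C1qa (0.45, adjusted p 0.0209) and Itgam (0.25, adjusted p 0.0268) also rose. Each of these 3 calls was kept in 8 of 12 fits and needed cKO_M1 replicate 8 and WT_M1 replicate 12. The other two libraries each needed were cKO_M1 replicate 9 and WT_M1 replicate 11 for C5ar2, cKO_M1 replicate 7 and WT_M1 replicate 10 for C1qa, and cKO_M1 replicate 7 and WT_M1 replicate 11 for Itgam, with an adjusted p of up to 0.115 for C5ar2, 0.104 for C1qa and 0.152 for Itgam. On stimulation 6 of the 8 rose and 2 fell in cKO, and 5 rose and 2 fell in WT. Of all tested genes 34.2% rose in each genotype, and 36% fell in cKO and 37.1% in WT. Among the 8, C5ar2 fell (log2 fold change -2.31 in cKO and -2.83 in WT), and Itgb2 (1.52 in cKO and 1.33 in WT) and Itgam rose.

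**Figure D5:**
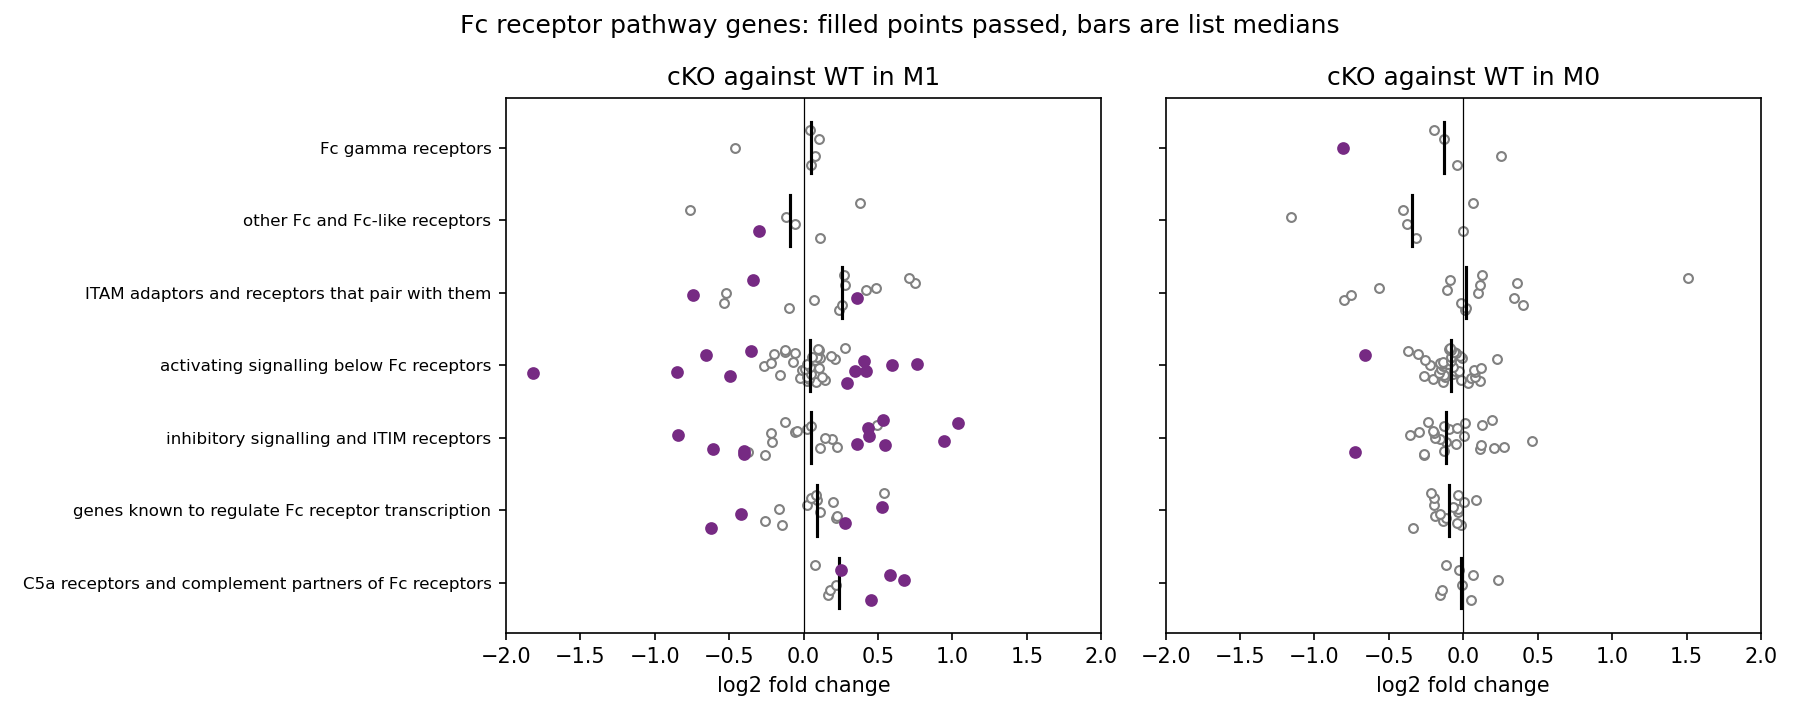
Log2 fold changes, cKO against WT, of the genes of each list in M1 (left) and M0 (right); each point is a gene, filled where it passed an adjusted p of 0.05, and the black bars are list medians. Filled points lie on both sides of 0 in M1, while in M0 they are Fcgr2b, Src and Cd22, all below 0.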

How the data were processed

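Gene expression was measured in 12 RNA sequencing libraries, in 4 groups of 3 taken from the sample titles. The deposited values are raw counts per gene, 1 column per library, with a gene length in bases per the file headers. Per the submitters' processing notes, the authors' tools were HISAT2 2.2.1, Trimmomatic 0.39, featureCounts 2.0.3 and SAMtools 1.16.1, and the build was GRCm39. Strand setting, treatment of multimapping reads and annotation version: not given in the sources used here. Of the table's 56980 gene IDs, 52073 matched a symbol. Of counts from 1 to 10, 60.9% were even, where about 50% would be usual, so counts were also tested halved.

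Counts were tested with edgeR 4.0.16 (R 4.3.3): filterByExpr with a minimum count of 10, TMM factors, 1 mean per group over all 12 libraries, and the quasi-likelihood F-test with Benjamini-Hochberg adjustment over 15110 genes, with 0.05 as the threshold. The common biological coefficient of variation was 0.111. SEs come from the fold change and F, and intervals are 95%. The test was also run on simulated counts with the same spread for every gene and changes larger than those of Fcgr2b, set in M1 alone. That run does not show how the test does on changes of the size seen for Fcgr2b. Depth was nearly equal between libraries, and the lowest count of any member was 1282. Alternatives used DESeq2 1.42.0 and limma 3.58.1 (voom), other scalings and filters, and each library left out.

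The genes named were set by rule: the members, Zc3h12c and Tnfrsf11a, up to 4 list genes with the smallest p that passed in each cKO against WT comparison (otherwise the pair with the smallest p), up to 3 a list for M1 against M0 in WT, the 3 genes most like each member, and up to 2 markers a cell type with the highest CPM. Marker genes named beyond this (Mertk, Cd68, Cpa3, Ms4a2, Mcpt8 and those at 0) were chosen after their values were seen. Of the most abundant markers, those of macrophages and of B, dendritic, mast, T and NK, and stromal cells are given. Tnfrsf11a passed in neither state, at 137 ± 39.7 CPM in cKO_M1, 134 ± 26.2 in WT_M1, 106 ± 26.8 in cKO_M0 and 115 ± 16.0 in WT_M0. The members, the lists and the tests were chosen with earlier results of these data known. Names, gene order and promoters come from RefSeq on GRCm38.p6 and transcripts from GENCODE on the same build, which is not the build of the counts; where a gene had several promoter windows, as Fcgr3 did, the first was used. All 5 members matched a window.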

Additional observations from a re-analysis of the deposited data

Results flagged for a closer look

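The genes below had a cKO effect that differed between the M1 and M0 states by the interaction test itself (cKO effect in M1 minus that in M0, log2, edgeR's quasi-likelihood test); none of the 5 Fc receptor genes was among them. Of all tested genes 8.16% passed this test (23.9% had an unadjusted p under 0.05, and 12.5% passed with DESeq2 and 8.08% with limma-voom). Their count, 1233, ran from 565 to 1576 with a library left out. The calls of the genes below are not given for those fits, and some lie near the threshold. In the lists 6 of 41 activating genes passed with a positive and 2 with a negative value, as did 2 and 1 of 25 inhibitory genes, 1 and 0 of 16 regulators, 1 and 0 of 8 complement genes, and 0 of the 15 ITAM genes (0 at an unadjusted p under 0.05) and of the 6 other Fc receptors (2 at an unadjusted p under 0.05); DESeq2 and limma-voom called 0 in both of these. Values are given for those among the genes named by rule. Among activating signalling genes, Pik3cg differed by 0.86 (adjusted p 0.00302), with a log2 fold change of 0.76 in M1 and -0.10 in M0. Lat2 differed by -0.93 (adjusted p 0.00701), with -0.85 in M1 and 0.08 in M0. Lcp2 differed by 0.40 (adjusted p 0.0185), with 0.35 in M1 and -0.06 in M0. Among ITIM receptors, Siglece differed by 1.02 (adjusted p 0.0126), with 1.04 in M1 and 0.01 in M0, and Cd300lf by -0.72 (adjusted p 0.00657), with -0.61 in M1 and 0.11 in M0. Nfkb1 differed by 0.60 (adjusted p 0.00495), with 0.53 in M1 and -0.07 in M0. C5ar1 differed by 0.44 (adjusted p 0.0487), with 0.67 in M1 and 0.23 in M0. The targeted gene Zc3h12c differed by -0.61 (adjusted p 0.0369), with -0.68 in M1 and -0.07 in M0.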

How the results depend on the processing

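The rises of all 5 members in M1 against M0 passed in both genotypes under every alternative run. For cKO against WT, Fcgr2b kept its M0 call in 7 of 8 alternatives, among them DESeq2 (-0.82, adjusted p 0.000290) and limma-voom (-0.82, adjusted p 0.0184). It lost the call in a fit to the M0 libraries alone (-0.81, adjusted p 0.0587). With a library left out, Fcgr2b in M0 ranged from -1.04 to -0.68 and kept its call in 5 of 12 fits. In M1 it gained a call with DESeq2 size factors (-0.48, adjusted p 0.0453), without a low-count filter (-0.48, adjusted p 1.63e-05), with DESeq2 (-0.48, adjusted p 0.0247), limma-voom (-0.46, adjusted p 0.0420), the M1 libraries alone (-0.48, adjusted p 0.00407) and halved counts (-0.46, adjusted p 0.0480), and ranged from -0.53 to -0.43 with a library left out. It passed there without cKO_M0 replicate 1 or 2 or WT_M0 replicate 5. Small differences that no test called changed sign: Fcer1g in M0 without cKO_M0 replicate 2 (0.0042), Fcgr1 in M1 without cKO_M1 replicate 7 (-0.018) or WT_M1 replicate 11 (-0.0033), and Fcgr4 (-0.0087) and Fcer1g (-0.0040) in M1 without cKO_M1 replicate 8. With a library left out, Fcgr1 in M0 ranged from 0.15 to 0.44 with no change of sign, and the others ranged from -0.083 to 0.0042 (Fcer1g in M0), -0.018 to 0.15 (Fcgr1 in M1), -0.0087 to 0.10 (Fcgr4 in M1) and -0.0040 to 0.066 (Fcer1g in M1). The cause was not tested.

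The count of all genes called in M0, 244, became 1182 without a filter, 874 with DESeq2, 491 with limma-voom, 394 in the M0 libraries alone and 373 with halved counts, and ran from 1 to 452 with a library left out. The interaction's 1233 became 1972 without a filter and 1884 with DESeq2, and ran from 565 to 1576. The M1 count, 2818, became 3324 with DESeq2, 3221 with library totals alone, 3116 without a filter, 2660 with limma-voom and 2175 in the M1 libraries alone. With a library left out the M1 count ran from 1658 to 3082. With library totals alone 61.5% of M1 calls and 60.5% of interaction calls were higher, against 48.2% and 49.3% with TMM. Without division by length the activating to inhibitory ratio was 23.4 in cKO_M1, 16.2 in WT_M1, 25.4 in cKO_M0 and 14.1 in WT_M0. No paired analysis was possible because the replicate numbers run on through the groups and no number is shared.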
